A study of Rattus norvegicus with 6 samples.

Results

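The genes described here are 32 ribosome biogenesis factors, chosen by symbol from a deposited table of 21857 genes: subunits and initiation factors of RNA polymerase I, proteins of the small nucleolar ribonucleoproteins (snoRNPs), and factors that cut and fold the precursor of ribosomal RNA. RNA sequencing had been done on cultured rat mesenchymal stem cells derived from the fat of Sprague Dawley animals. Of 6 libraries, 3 came from cells given vehicle and 3 from cells given 3.432 mM branched chain amino acids (BCAA: leucine, isoleucine and valine), for 12 h. Every culture, controls included, was also exposed to 100 µM hydrogen peroxide and was grown in high-glucose medium made without BCAA, with serum, so the vehicle group is a BCAA-poor state and not ordinary medium. Whether the 3 replicates of a group were grown from different rats or dishes is not stated, and a p-value here therefore covers only library-to-library spread, part of which may be technical. The question asked is whether transcripts for building ribosomes differ between cells with and without added BCAA under oxidant.

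Ribosomes are built in the nucleolus, where RNA polymerase I copies the ribosomal DNA into 1 long precursor RNA. Box C/D and box H/ACA snoRNPs then methylate and pseudouridylate this RNA, and separate sets of assembly factors shape the small and the large subunit. Growing cells spend much of their energy on this work, and amino acid supply through the mTORC1 kinase and the transcription factor MYC are known to set its pace. MYC binds the E-box letters CACGTG in many promoters of these genes.

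Of the 32 factors, 30 had enough reads to be tested and 2 did not. Nhp2, a core protein of box H/ACA particles, and Ebna1bp2, a large subunit factor, had 1 count each over all 6 libraries. Both are needed by dividing cells, so these rows are not read as absence of the transcripts, and the reason for the low counts was not tested. Without the strand setting of the counting, and with near-identical copies of some of these genes possible in the genome, reads of Npm1, Nop10 and similar short or abundant genes may have been split.

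None of the 30 tested factors passed an adjusted p of 0.05 (edgeR's quasi-likelihood test with Benjamini-Hochberg adjustment over all 12298 genes tested), and DESeq2 also called 0. Over all genes the share called was 0.228%, that is 28 genes, 7 higher (0.0569%) and 21 lower (0.171%) with BCAA (11 and 18 without scaling factors, 55 and 72 with DESeq2). At an unadjusted p under 0.05 there were 3 of 30 factors lower with BCAA (10.0%) and 0 higher, where the shares among all genes were 5.84% lower and 5.95% higher. The 3 were Nop16, Bop1 and Fbl. Differences were small: the 95% interval of the fold change lay within 1.5-fold either way for 29 of 30 factors, and for 74.4% of all genes. The exception was Nop10, whose log2 interval ran from -0.65 to 0.05.

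The signs leaned one way. The log2 fold change was below 0 for 27 of the 30 factors (90.0%), against 49.2% of all genes, and the median over the factors was -0.09 against 0.00 for all genes. This lean rested in part on vehicle replicate 1. Without that library 19 of 30 factors were below 0 (63.3%, against 47.9% of all genes) and the median was -0.03. Leaving it out changed the sign of 10 factors. The factors are read from the same libraries and are not separate observations, and the lean was not tested. Libraries of the groups did not overlap for 4 factors that were lower with BCAA (13.3%, against 8.76% of all genes). These were Bop1, Pes1, Nop16 and Nip7, all listed here under large subunit processing. Among 51 other tested genes of large subunit assembly and export the share was 9.8%, near that of all genes. The groups did not overlap for 2 factors that were higher (6.67%, against 9.29%), Polr1a and Utp20.

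**Figure D1:**
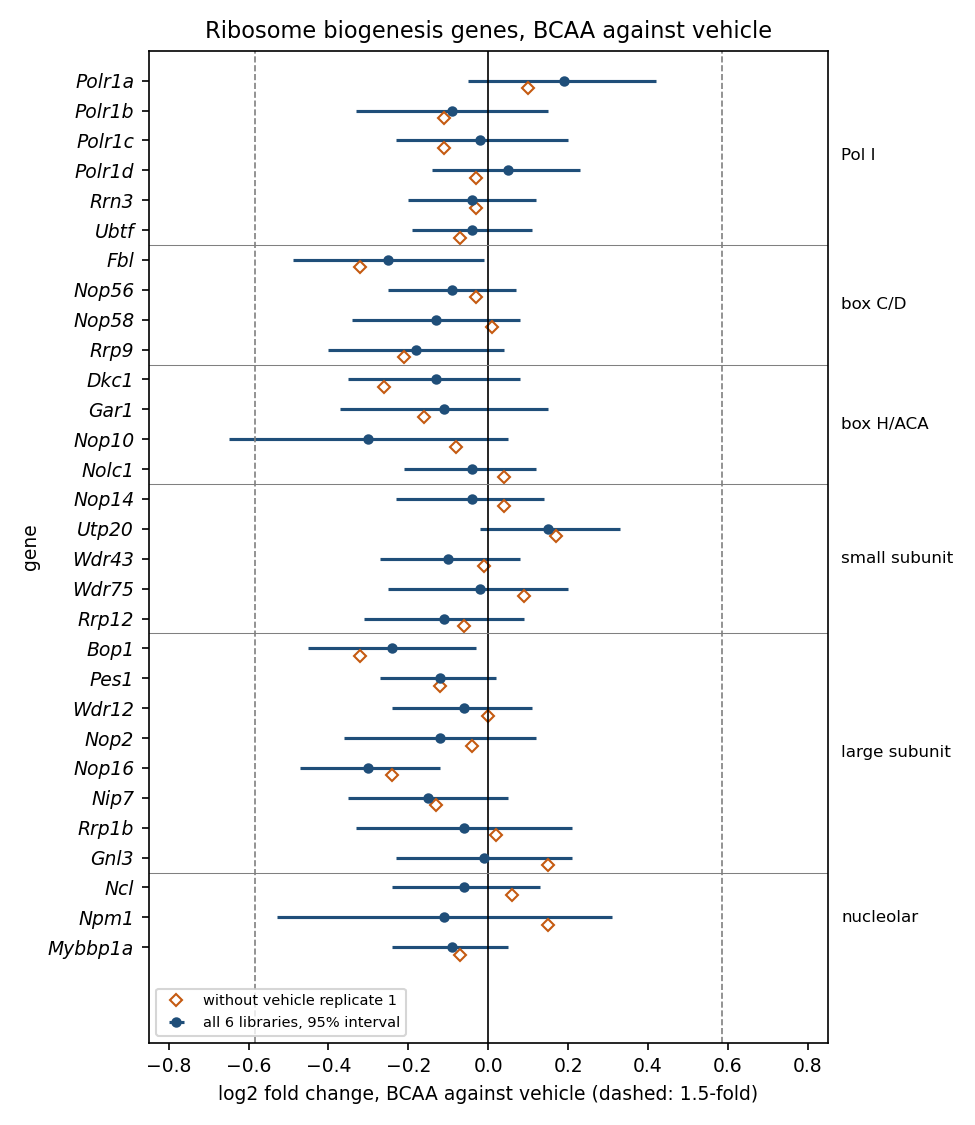
Log2 fold change of the 30 tested factors, BCAA against vehicle, by role. Filled points and bars are the fit on all 6 libraries with its 95% interval, open diamonds the fit without vehicle replicate 1, and dashed lines mark 1.5-fold. Most filled points lie left of 0 and only the interval of Nop10 crosses a dashed line. The diamonds of Npm1, Gnl3 and Ncl lie right of 0 and those of Dkc1, Bop1 and Fbl farther left than their filled points.

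The large subunit factors held 2 of the 3 genes with an unadjusted p under 0.05. All 8 tested were below 0 (median -0.12), and none passed. Without vehicle replicate 1, 5 of 8 were below 0 (median -0.08) and 1 (12.5%), Bop1, was called. In that fit 2.20% of all genes were called lower. Nop16, a nucleolar protein of early large subunit assembly, was at 58.9, 52.7 and 53.6 CPM (counts per 1000000 counts, scaled by TMM) in the vehicle libraries, in order of replicate number. It was at 42.3, 46.5 and 45.6 CPM in the BCAA libraries, in the same order as for all genes below. Every BCAA library lay under every vehicle library. The mean was 55.1 ± 3.31 CPM with vehicle and 44.8 ± 2.19 CPM with BCAA (SD, n = 3 each), a log2 fold change of -0.30 (SE 0.08), which is 1.23-fold lower. With edgeR its unadjusted p was 0.0028 and its adjusted p 0.16 (range over all alternatives 0.081 to 0.49).

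Bop1 forms with Pes1 and Wdr12 the PeBoW complex, which is needed to process the RNA of the large subunit. Bop1 was at 36.9, 47.4 and 41.5 CPM with vehicle and at 35.2, 36.6 and 34.8 CPM with BCAA, so the groups did not overlap, although vehicle replicate 1 lay just above the BCAA libraries. The log2 fold change was -0.24 (SE 0.10; edgeR adjusted p = 0.36). Without vehicle replicate 1 it was -0.32, with an edgeR adjusted p of 0.037, and the range over all alternatives was 0.037 to 0.72. Its partners differed less. Pes1 was at 124, 125 and 121 CPM with vehicle and at 107, 115 and 117 CPM with BCAA (log2 fold change -0.12, SE 0.07), again without overlap. Wdr12 was at 59.2, 51.7 and 52.7 CPM and at 50.6, 51.6 and 54.6 CPM (-0.06, SE 0.08), with overlapping groups, so the 3 subunits did not share 1 size of difference, and the differences between them were not tested.

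Nip7, listed here under large subunit processing, was at 42.3, 40.1 and 41.2 CPM with vehicle and at 32.7, 39.9 and 38.8 CPM with BCAA. The groups did not overlap, but BCAA replicates 2 and 3 came close to the vehicle libraries (log2 fold change -0.15, SE 0.09). Nop2, a methyltransferase of large subunit RNA, had a log2 fold change of -0.12 (SE 0.11), and Rrp1b, a nucleolar scaffold protein, -0.06 (SE 0.13). Gnl3 (nucleostemin), a GTPase found in nucleoli of stem and tumour cells, had -0.01 (SE 0.10), and its libraries are given below.

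Among box C/D proteins all 4 tested were below 0 (median -0.16; 3 of 4 and -0.12 without vehicle replicate 1), and none passed. Fbl, fibrillarin, the methyltransferase of these particles, was at 36.1, 43.6 and 41.6 CPM with vehicle and at 30.4, 39.7 and 31.9 CPM with BCAA. BCAA replicate 2 lay inside the vehicle range. The log2 fold change was -0.25 (SE 0.11; unadjusted p = 0.043, edgeR adjusted p = 0.41). Rrp9, a protein of the U3 snoRNP, which acts in small subunit processing, was at 30.5, 35.7 and 29.8 CPM with vehicle and at 30.4, 27.4 and 27.0 CPM with BCAA. Its groups overlapped, with vehicle replicate 2 the highest library (-0.18, SE 0.10). The core scaffold proteins are Nop56, with a log2 fold change of -0.09 (SE 0.08), and Nop58, with -0.13 (SE 0.10).

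Among box H/ACA proteins and their chaperone Nolc1, all 4 tested were below 0 (median -0.12; 3 of 4 and -0.12 without vehicle replicate 1), and none passed. Dkc1, dyskerin, the pseudouridine synthase, was at 96.8, 132 and 128 CPM with vehicle and at 108, 113 and 103 CPM with BCAA. The BCAA libraries thus lay above vehicle replicate 1 and under the other 2 vehicle libraries. With all libraries the log2 fold change was -0.13 (SE 0.10; edgeR adjusted p = 0.64). Without vehicle replicate 1 it was -0.26 (SE 0.06), with an edgeR adjusted p of 0.018, and the range over all alternatives was 0.018 to 0.91. Dkc1 and Bop1 were the only 2 factors called in that fit (6.67% of the 30), in which 2.20% of all genes were called lower and 1.86% higher.

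Nop10, the small structural protein that sits beside dyskerin, was at 54.8, 41.2 and 32.8 CPM with vehicle and at 30.4, 37.1 and 37.4 CPM with BCAA. Its spread within vehicle was wider than the difference between groups (log2 fold change -0.30, SE 0.16; edgeR adjusted p = 0.50), and without vehicle replicate 1 the difference was -0.08. Gar1, which completes the particle, had -0.11 (SE 0.12), and Nolc1, a carrier of snoRNPs to the nucleolus, -0.04 (SE 0.08).

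RNA polymerase I and its initiation factors lay close to 0 (6 tested, median -0.03, log2 fold changes from -0.09 to 0.19), and none passed. Polr1a, the largest subunit, was at 19.0, 23.9 and 23.0 CPM with vehicle and at 24.4, 25.1 and 25.7 CPM with BCAA, so all BCAA libraries were higher. The log2 fold change was 0.19 (SE 0.11; edgeR adjusted p = 0.53), and without vehicle replicate 1 it was 0.10. Polr1b, the second largest subunit, was at 17.4, 18.5 and 17.9 CPM with vehicle and at 18.1, 16.9 and 15.6 CPM with BCAA (-0.09, SE 0.11), with overlapping groups. Polr1c and Polr1d, which RNA polymerase III also uses, had -0.02 (SE 0.10) and 0.05 (SE 0.09).

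The initiation factors hardly differed between libraries. Rrn3 (TIF-IA), the factor through which growth signals are known to reach RNA polymerase I, was at 51.8, 51.7 and 51.0 CPM with vehicle and at 48.7, 50.2 and 51.2 CPM with BCAA. Its log2 fold change was -0.04, with a 95% interval from -0.20 to 0.12. Ubtf, which keeps ribosomal DNA open, had -0.04, with an interval from -0.19 to 0.11. Rrn3 is regulated largely by phosphorylation, which RNA counts do not measure.

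Small subunit factors gave 4 of 5 below 0 (median -0.04), and none passed. Without vehicle replicate 1 the direction turned, with 2 of 5 below 0 and a median of 0.04. Utp20, a very large scaffold protein of the small subunit processome, was at 40.2, 40.1 and 38.5 CPM with vehicle and at 46.4, 42.0 and 43.6 CPM with BCAA. All BCAA libraries were higher (log2 fold change 0.15, SE 0.08; edgeR adjusted p = 0.49), and the value without vehicle replicate 1 was 0.17. Wdr43, a processome protein that works beside RNA polymerase I, was at 83.5, 69.7 and 73.0 CPM with vehicle and at 70.4, 71.8 and 69.1 CPM with BCAA. Its difference (-0.10, SE 0.08) rested on vehicle replicate 1, without which it was -0.01. Nop14 had a log2 fold change of -0.04, Wdr75 -0.02 and Rrp12 -0.11, each with an SE of 0.09 or 0.10.

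**Figure D2:**
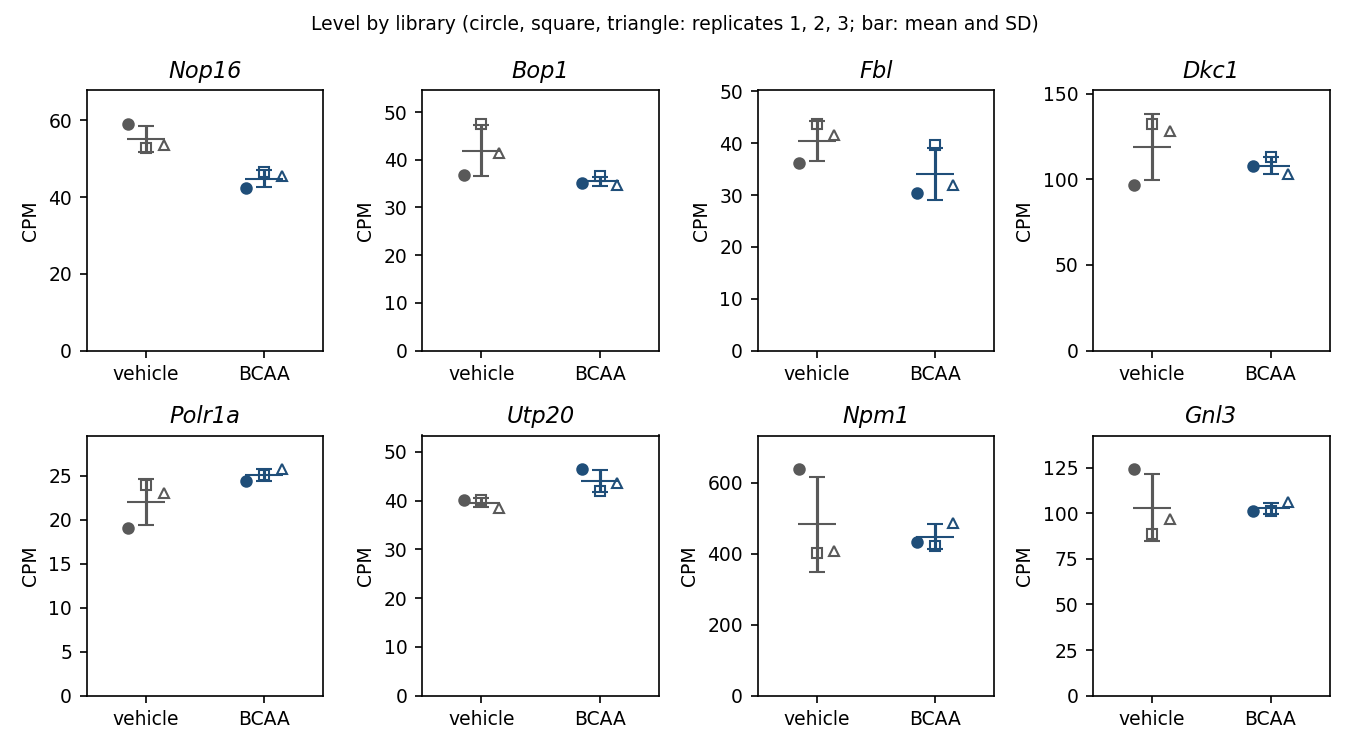
Level of 8 factors in each library, in CPM on axes that start at 0, for vehicle (grey) and BCAA (blue), with bars for the mean and SD (n = 3). For Nop16 the groups are apart. Vehicle replicate 1 is the filled grey circle, which lies at the top for Npm1 (637 CPM) and Gnl3 (124 CPM) and at the bottom for Dkc1 (96.8 CPM) and Polr1a (19.0 CPM).

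Vehicle replicate 1 stood apart within the factors mainly by high levels. It was the highest of the 6 libraries for 16 of 30 factors (53.3%, against 23.6% of all genes) and the lowest for 4 (13.3%, against 24.7%). Npm1, nucleophosmin, the abundant chaperone of the nucleolus, was at 637 CPM there, at 402 and 408 CPM in the other vehicle libraries and at 434, 421 and 487 CPM with BCAA. Vehicle replicate 1 thus lay 0.65 (log2) above the mean of its partners, and the fold change of -0.11 (SE 0.18) became 0.15 (SE 0.06) without it. Gnl3 was at 124, 88.4 and 96.9 CPM with vehicle and at 101, 101 and 106 CPM with BCAA, and its fold change went from -0.01 to 0.15. Ncl, nucleolin, was at 293, 239 and 231 CPM with vehicle and at 258, 233 and 243 CPM with BCAA, and went from -0.06 to 0.06.

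The 4 factors that were lowest in vehicle replicate 1 were Polr1a, Polr1c, Polr1d and Dkc1. A share of 13.3% is under that of all genes, so these 4 are given as values only. Polr1c was at 35.6 CPM there and at 46.2 and 41.3 CPM in the other vehicle libraries, and Polr1d at 81.2 against 94.9 and 99.2 CPM. Averaged over members and centred on each gene's mean, the 6 polymerase and initiation genes lay at -0.12 (log2) in vehicle replicate 1, the large subunit factors at 0.15 and the group of Ncl, Npm1 and Mybbp1a at 0.26. The low value of the 6 did not extend to 12 other tested genes of the polymerase and its SL1 complex, which lay at 0.09 there. Mybbp1a itself, a nucleolar partner of transcription factors, hardly took part (93.2, 87.0 and 93.2 CPM with vehicle; 87.3, 83.4 and 85.3 CPM with BCAA). Npm1, Gnl3, Polr1c and Polr1d, and above Pes1, Wdr12, Nip7 and Rrn3, were chosen for display by library after their values were seen.

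**Figure D3:**
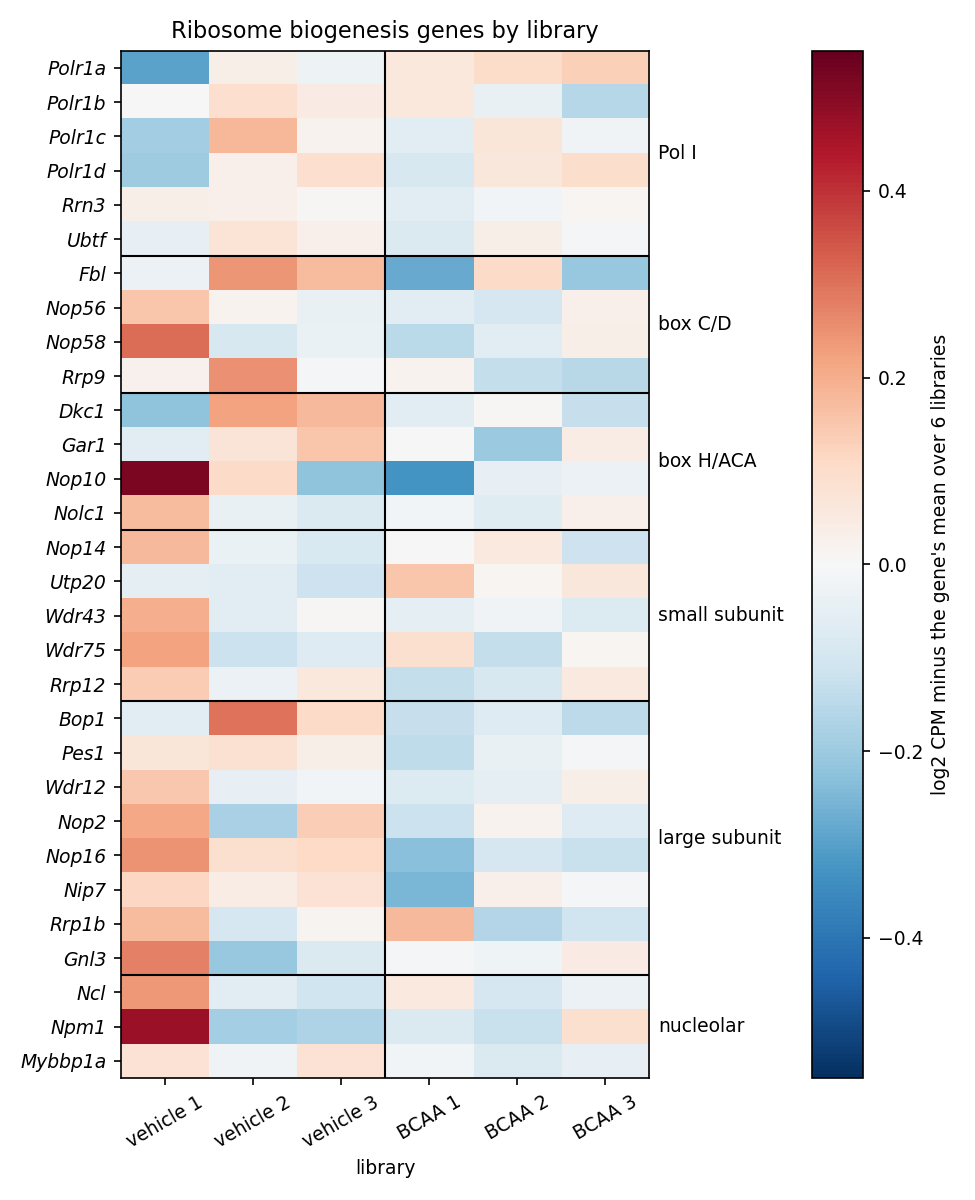
Level of each tested factor in each library as log2 CPM minus that gene's mean over the 6 libraries (red higher, blue lower), with factors in rows by role and libraries in columns. The column of vehicle replicate 1 is red for 16 factors that are highest there, Nop10 and Npm1 most, and blue for Polr1a, Polr1c, Polr1d and Dkc1.

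The 32 factors took 0.263%, 0.236% and 0.235% of all counts in the vehicle libraries and 0.235%, 0.233% and 0.239% in the BCAA libraries. These shares overlapped between groups, and vehicle replicate 1 was the highest. Npm1 alone made up 23.3% of the factors' counts in that library and between 17.1% and 20.3% in the others. Without Npm1 the share was 0.197% ± 0.00399 with vehicle and 0.191% ± 0.000208 with BCAA (SD, n = 3 each), and every vehicle library (0.1940% to 0.2016%) lay above every BCAA library (0.1904% to 0.1908%). This difference was not tested, and leaving out Npm1 was chosen after its values were seen. These are shares of the RNA sequenced. They do not tell a lower transcript level per cell from fewer cells that express a gene, nor do they show the total RNA of a cell, most of which is ribosomal.

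Promoter sequences of 30 of the 32 factors were found in RefSeq's table for the rat assembly GRCr8, from 250 bases before to 50 after the gene's start. Bop1 and Wdr43 are not in it. The letters CACGTG, which read the same on both strands, occurred in 10 of these 30 promoters (33.3%). They occurred in 6.65% of all 27457 promoters in the table, in 9.38% of the 9223 that belong to tested genes, in 8.20% of those of cytosolic ribosomal proteins and in none of 15 mitosis genes. Other ribosome assembly genes held them about as often as the factors (34 of 122, 27.9%), as did 3 of 7 MYC network genes (42.9%), so the letters are not particular to the 32. A match describes letters and shows no binding. The TATAAA letters, searched on both strands, were in 2 of 30 (6.67%), against 6.68% for tested genes.

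The 11 matches are shown with up to 12 bases on either side, in capitals for CACGTG, because the choice of these genes by name did not use sequence. Each line gives the gene, its place in GRCr8 and the strand on which the gene lies, and is read 5′ to 3′.
Fbl, chr1:92597416-92597445, plus strand: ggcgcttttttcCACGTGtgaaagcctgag
Rrp12, chr1:250655298-250655327, minus strand: gctgagaatacaCACGTGggttctgctgtg
Nop2, chr4:159618992-159619015, plus strand: cttccccaagtgCACGTGgagcgg
Ebna1bp2, chr5:137433552-137433581, plus strand: gcgtcttgctggCACGTGgagtggcagccg
Utp20, chr7:25102959-25102988, minus strand: cagcactagctaCACGTGagaaaaagcaga
Wdr75, chr9:55395060-55395089, plus strand: tcactctttctaCACGTGttttaatttgac
Mybbp1a, chr10:57555290-57555319, plus strand: gcagtttctacaCACGTGtgcgagcacagg
Mybbp1a, chr10:57555445-57555474, plus strand: gtctttcgagccCACGTGtttggttcagca
Pes1, chr14:83074284-83074313, plus strand: ccctaagcggggCACGTGcggtaggaagta
Gnl3, chr16:6219790-6219819, minus strand: agttccagttcgCACGTGgcgcccgagacg
Dkc1, chrX:157751455-157751484, plus strand: agcgtcccggcgCACGTGcgggccccaccc

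In 7 of the 11 matches the letters began before the annotated start, from position -184 in Dkc1 to position -1 in the second match of Mybbp1a (counted back from the start). The other 4 lay in the first 50 transcribed bases of Fbl, Rrp12, Nop2 and Ebna1bp2. The 9 tested factors with a match had a median log2 fold change of -0.11 (from -0.25 to 0.15, 8 below 0). The 19 tested factors whose promoter held no match had -0.06 (from -0.30 to 0.19, 17 below 0). The ranges overlapped almost fully, and the difference was not tested.

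The 250 bases upstream of 2 factors are given whole: Nop16, which had the lowest unadjusted p and holds no CACGTG, and Dkc1, which was called only without vehicle replicate 1 and holds 1 (capitals). They hold 17 and 27 CG dinucleotides.
Nop16, chr17:10027808-10028057, plus strand, GRCr8: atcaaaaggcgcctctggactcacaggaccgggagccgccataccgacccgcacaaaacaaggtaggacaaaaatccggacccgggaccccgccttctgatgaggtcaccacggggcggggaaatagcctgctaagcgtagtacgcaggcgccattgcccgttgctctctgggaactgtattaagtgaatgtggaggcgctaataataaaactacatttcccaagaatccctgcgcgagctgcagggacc
Dkc1, chrX:157751401-157751650, plus strand, GRCr8: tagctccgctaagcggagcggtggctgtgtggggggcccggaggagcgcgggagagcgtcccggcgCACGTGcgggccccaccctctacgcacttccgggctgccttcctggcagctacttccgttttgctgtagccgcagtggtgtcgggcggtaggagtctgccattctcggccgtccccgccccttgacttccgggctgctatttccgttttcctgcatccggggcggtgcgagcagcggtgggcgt

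Myc, which encodes the factor that binds these letters, was at 84.1, 93.2 and 85.7 CPM with vehicle and at 76.9, 82.6 and 80.0 CPM with BCAA. All BCAA libraries were lower (log2 fold change -0.14, SE 0.07; unadjusted p = 0.084, edgeR adjusted p = 0.49). Of 8 tested genes of the MYC network none passed, and 3 were higher at an unadjusted p under 0.05 (37.5%, against 5.95% of all genes). These were Mxi1, Mxd1 and Mga, genes for proteins that partner with MAX in place of MYC. Other genes of that kind lay near 0, with log2 fold changes of -0.02 for Mxd4 and 0.03 for Mnt. Max itself was at -0.01, and Mycl, a relative of Myc, was at 0.24. Mxi1 was at 69.5, 58.7 and 57.8 CPM with vehicle and at 75.3, 68.7 and 76.1 CPM with BCAA, so its groups overlapped by 1 library. Its log2 fold change was 0.24 (SE 0.09; edgeR adjusted p = 0.30). Without vehicle replicate 1 it was 0.34, with an edgeR adjusted p of 0.011, in a fit that called 1.86% of all genes higher. Mxd1 was at 30.8, 31.2 and 29.4 CPM and at 34.5, 33.9 and 36.2 CPM, without overlap (log2 fold change 0.19, SE 0.09). Mga (0.32, SE 0.12) owed its value to BCAA replicate 1, at 90.7 CPM against 61.5 and 64.7 CPM in the other BCAA libraries and 56.5 to 60.9 CPM with vehicle.

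A wider list of other ribosome assembly genes, 148 in number, gave 142 tested genes. None passed in either direction with edgeR or with DESeq2, and 98 were below 0 (69.0%, median -0.07). At an unadjusted p under 0.05, 15 were lower (10.6%, against 5.84% of all genes) and 0 higher. Without vehicle replicate 1, 5 were called lower (3.52%, against 2.20% of all genes) and 0 higher (against 1.86% of all genes), and the median was -0.04. By role the medians were -0.07 for other polymerase subunits and the SL1 complex (12 tested), -0.06 for small subunit assembly (45), -0.05 for large subunit assembly and export (51), -0.07 for nucleases (24) and -0.11 for snoRNP assembly (10). They rested in part on vehicle replicate 1: without it the median was 0.00 for small subunit assembly (22 of 45 below 0) and for snoRNP assembly, and -0.06, -0.05 and -0.05 for the polymerase, large subunit and nuclease genes.

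Of the wider list the 3 genes with the smallest p were all lower with BCAA and had groups that did not overlap. Groups did not overlap, with BCAA lower, for 17 of the 142 (12.0%) and for 8.76% of all genes. Exosc5, a subunit of the RNA exosome that trims ribosomal RNA ends, was at 34.7, 38.3 and 39.97 CPM with vehicle and at 31.6, 28.8 and 28.0 CPM with BCAA (log2 fold change -0.35, SE 0.09; edgeR adjusted p = 0.14). Imp3, which binds U3 RNA, was at 71.3, 70.8 and 73.0 CPM and at 53.9, 60.3 and 63.8 CPM (-0.27, SE 0.08; adjusted p = 0.18 with edgeR). Without vehicle replicate 1 both were called, Exosc5 at -0.40 (edgeR adjusted p = 0.013) and Imp3 at -0.27 (edgeR adjusted p = 0.043). Polr2f, a subunit that all 3 nuclear RNA polymerases share, was at 32.7, 31.7 and 31.8 CPM with vehicle and at 26.3, 28.8 and 24.2 CPM with BCAA. Its log2 fold change was -0.28 (SE 0.10; adjusted p = 0.27 with edgeR), and -0.26 without vehicle replicate 1, where it was not called.

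Beside the factors, genes of the ribosome itself lay lower by more. Of 72 cytosolic ribosomal protein genes tested, 66 were below 0 (91.7%, median -0.16). At an unadjusted p under 0.05, 26 were lower (36.1%, against 5.84% of all genes) and 1 higher (1.39%, against 5.95%). None passed with edgeR and 1 with DESeq2. Rpsa, a small subunit protein, was at 1735, 1728 and 1604 CPM with vehicle and at 1335, 1449.8 and 1458 CPM with BCAA, without overlap (-0.26, SE 0.06; edgeR adjusted p = 0.12). Ribosomal protein genes shared the high level of vehicle replicate 1, where their mean centred value was 0.20, and their median was -0.11 without it. Many have near-identical copies, so their reads may have been split.

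Mitosis genes went the other way, with 16 of 19 above 0 (median 0.26, none passed). Below 0 were 15.8%, against 49.2% of all genes. Without vehicle replicate 1, 16 of 19 were again above 0, the median was 0.31 and 2 were called higher. In that fit 1.86% of all genes were called higher. Mki67, a proliferation marker, was at 12.1, 8.95 and 7.68 CPM with vehicle and at 15.5, 13.9 and 14.5 CPM with BCAA (log2 fold change 0.61, SE 0.16; edgeR adjusted p = 0.13). Without vehicle replicate 1 its log2 fold change was 0.81, with an edgeR adjusted p of 0.0024. The medians of ribosome assembly genes and of mitosis genes therefore did not share a sign in these libraries. On the assembly side this rested in part on vehicle replicate 1. Without it 19 of 30 factors were below 0 (median -0.03), and 81 of 142 genes of the wider list (median -0.04). The difference between assembly and mitosis genes was not tested, and both sets are read from the same 6 libraries.

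**Figure D4:**
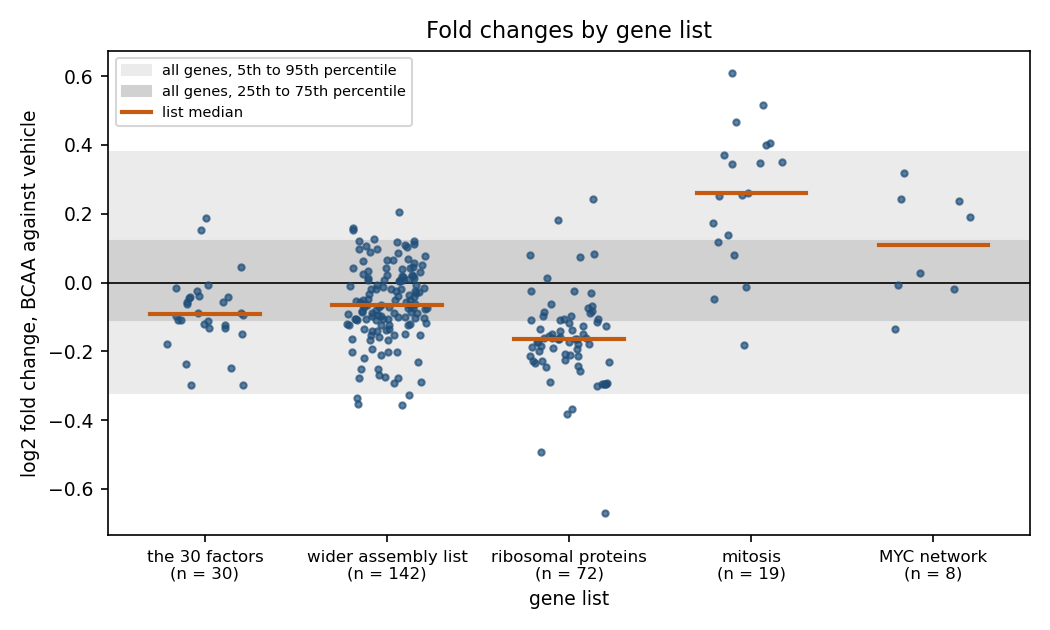
Log2 fold change, BCAA against vehicle, of each tested gene (points) in 5 lists, with the list median (orange bar) and the middle ranges of all 12298 genes (grey bands). The 30 factors and the wider assembly list centre slightly under 0 (medians -0.09 and -0.07), ribosomal proteins lower (-0.16), mitosis genes higher (0.26). The median of the MYC network is 0.11.

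Library totals ran from 12725344 to 15739731 counts, and each tested factor had between 199 and 8892 counts per library. On the first principal component, which held 29.1% of the variance, vehicle replicate 1 lay apart from the other 5. Mitochondrially encoded genes took 6.58% of its counts, 4.92% and 4.91% in the other vehicle libraries and 5.6% to 6.24% with BCAA, and the part of this in the differences above was not tested. Markers of mesenchymal stromal cells were abundant, with 10 of 11 in the table and a summed level of 16311 to 17801 CPM with vehicle and 16500 to 16987 CPM with BCAA. Markers of adipocytes were all under 1 CPM, as were 4 of the 5 endothelial markers found. Leukocyte markers summed to 64.1 to 69.5 CPM with vehicle and 67.5 to 73.6 CPM with BCAA, with Ptprc at 14.1 to 17.6 CPM and Cd3e at 0. Smooth muscle and pericyte markers summed to 129 to 136 CPM with vehicle and 97.5 to 103 CPM with BCAA. Acta2 was at 35.0 to 36.5 CPM with vehicle and 19.0 to 20.4 CPM with BCAA. Cnn1, Myh11 and Des were also lower in every BCAA library. Cspg4 overlapped (7.29 to 8.0 CPM with vehicle, 6.03 to 9.04 CPM with BCAA), and Rgs5 was under 1 CPM. Whether these sums reflect cell types or levels within cells, and their part in the differences above, was not tested.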

How the data were processed

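The deposited table holds whole-number read counts per gene symbol for 6 libraries, not normalized and not pooled; the submitters' processing notes name Trimmomatic, FastQC, STAR, HTSeq and the build rn6. No source used here gives their versions, the annotation or the strand setting. RNA was extracted with TRIzol and libraries were made with a NEBNext Ultra kit, per the labels' protocols. Groups and columns were matched through the titles. Chi-square per degree of freedom was 2.65 to 18.1 over the 15 pairs of libraries, so none was counted as a duplicate.

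Unless another fit is named, values come from 1 main fit over the whole table. It used edgeR 4.0.16 in R 4.3.3 (quasi-likelihood, robust, group as the only term), TMM scaling and filterByExpr (minimum count 10, minimum total 15). In it 12298 genes were tested, with Benjamini-Hochberg adjustment, and called at an adjusted p under 0.05. The SE is the log2 fold change divided by the square root of F, and the 95% interval uses the fit's t distribution. Library means use log2 CPM with a prior count of 2. DESeq2 1.42.0, RLE scaling, no scaling, no filter, the replicate number as a block and leaving out each library were alternatives. The fits were tested on simulated data.

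Members and lists were chosen with earlier results of these data known. Per-library values are given for factors with an unadjusted p under 0.05, the 2 with the smallest p in each of 6 role groups, the 3 wider genes of smallest p each way, Myc, and up to 2 ribosomal protein and mitosis genes. Genes outside this rule are named as such. Of the wider genes, 3 were matched through RefSeq synonyms. Gene lengths of rn6 were not used here, so levels are not compared between genes.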

Additional observations from a re-analysis of the deposited data

How the results depend on the processing

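The count of called genes over the whole table (28) was 127 under DESeq2, 124 with no filter on low counts and 6 with the replicate block, and ran from 7 to 500 with each library left out, the highest without vehicle replicate 1. Among the 30 factors 0 were called under all of these settings except without vehicle replicate 1, with 2 (range over left-out libraries 0 to 2). The factors' median log2 fold change was -0.03 without vehicle replicate 1, the highest over left-out libraries, and -0.11 at the lowest. Whether replicate numbers pair libraries could not be told. Correlations of same-numbered deviations were -0.07, 0.11 and -0.15, and those of differently numbered libraries ran from -0.08 to 0.15. With 3 libraries per group there are too few to settle it. Totals of same-numbered libraries lay close: 14484051 (vehicle) and 14482260 (BCAA) for number 1, 15739731 and 15654060 for 2, 12725344 and 12802663 for 3. The replicate block called 0 factors. The wider list's median was -0.03 without scaling factors; with libraries left out it ran from -0.07 to -0.04 and its calls from 0 to 5. The MYC network's ran from 0.07 to 0.14, with 0 to 1 called. Of ribosomal protein genes 1 was called with DESeq2, 1 without the filter and 0 to 5 with libraries left out, and of mitosis genes 1 without the filter and 0 to 2. The factors' share of counts without mitochondrially encoded genes was 0.259% with vehicle and 0.25% with BCAA, against 0.245% and 0.236% of all counts. Without Npm1, an alternative added after seeing the data, it was 0.197% and 0.191%.

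The sign of 11 of 30 factors changed under at least 1 of 11 alternatives, in each case to a size of at most 0.15. Without vehicle replicate 1 the log2 fold change was 0.15 for Gnl3 and Npm1, 0.09 for Wdr75, 0.06 for Ncl, 0.04 for Nolc1 and Nop14, 0.02 for Rrp1b, 0.01 for Nop58, 0.00 for Wdr12 (just above 0) and -0.03 for Polr1d. At the other end of the range with 1 library left out stood -0.11 for Gnl3, -0.23 for Npm1, -0.09 for Wdr75, Nolc1 and Nop14, -0.12 for Ncl, -0.17 for Rrp1b, -0.21 for Nop58, -0.10 for Wdr12 and 0.10 for Polr1d. Gnl3 was at 0.03 without scaling factors, 0.01 with the replicate block and 0.01 without BCAA replicate 2. Polr1c was at 0.01 without scaling factors, 0.08 without vehicle replicate 2 and 0.01 without BCAA replicate 1. Wdr75 was at 0.01 without scaling factors and 0.03 without BCAA replicate 2, and Rrp1b at 0.01 without BCAA replicate 2. The cause was not tested. Tested factors had at least 199 counts per library. How far counting error and how far the spread between libraries limited the test was not separated.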
